A study of Mus musculus with 14 samples.

Results

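The genes described here are 9 genes of autophagy and mitophagy, taken from the count table by their symbols: Pink1, Clec16a, Mtor, Lamp1, Map1lc3b, Sqstm1, Becn1, Ulk1 and Fundc1. All 9 symbols were found among the 46095 of the table, and all 9 passed the filter on low counts, which kept 17693 genes. Autophagy encloses parts of the cytoplasm in a double membrane, the autophagosome, which then fuses with lysosomes, where its content is broken down. Mitophagy is the form that removes mitochondria. In one route the kinase Pink1 gathers on damaged mitochondria and sets off their tagging with ubiquitin, and in another route receptors of the outer mitochondrial membrane bind LC3 proteins directly. Drp1, the product of Dnm1l, is the dynamin-related GTPase that divides mitochondria, and mitochondria that have been divided are easier to enclose.

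The superior mesenteric artery (SMA), a large vessel of smooth muscle that supplies the gut, was sequenced in 14 mice of the C57BL/6 background, all 8 weeks of age. The labels give the genotype Drp1 +/+ for wild-type (WT) mice and Drp1 flox/+ for the other genotype, and they name no Cre line. The methods of the study describe the mutants as Drp1 +/− mice made by gene editing, named Drp1 KO, and this name is used here. That these mice keep only 1 intact allele rests on the methods, because the labels alone do not show it. The normal groups held 3 WT mice and 4 KO mice. The ischemia groups held another 3 and 4, and in the methods ischemia is caused by blood loss. The labels of the ischemia samples carry the term 2h, whereas the paper names these groups with 4h, so the length of ischemia is uncertain. The question of the design was how ischemia changes the artery and whether loss of 1 Drp1 allele, as the methods describe it, changes that response. Each library was taken as 1 mouse, and if samples came from fewer animals the p-values would cover technical spread only.

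The total count per mouse lay between 25612646 and 40255851, and 1 library of WT mice under normal conditions (replicate 3) came from another sequencing lane than the other 13. Levels are given as CPM, which are read counts scaled to a common library size with TMM factors. At this depth 3 counts, taken as the floor, are worth 0.0678 to 0.113 CPM. Dnm1l had a lower mean in KO than in WT mice under normal conditions, at 58.9 against 73.5 CPM, which is a difference of −19.8% (two-sided exact permutation p = 0.0286 for 4 against 3 mice, the smallest possible). By edgeR its log2 fold change was −0.32 (SE 0.16, interval −0.67 to 0.03, unadjusted p 0.0735, FDR 0.974), which was not called. The groups did not overlap, which held in the lower direction for 1.9% of all genes tested. Without the library of the other lane the difference was −8.99% (two-sided exact permutation p = 0.133). After ischemia Dnm1l was at 69.4 against 75.0 CPM, or −7.50% (two-sided exact permutation p = 0.457), with a log2 fold change of −0.11 (SE 0.16, edgeR FDR 0.872). The smooth muscle markers Acta2, Myh11, Tagln, Cnn1, Smtn and Lmod1 summed to 7316 to 37360 CPM per mouse. Tagln gave only 0.675 to 5.78 CPM of these sums, and the reason was not tested. Genes of fat cells were also present. The 6 white adipocyte markers summed to 1152 to 18300 CPM and the 6 brown adipocyte markers to 178 to 6506 CPM. Of the brown adipocyte markers, Cpt1b was at only 0 to 1.39 CPM. The neutrophil genes Ly6g and Mpo, the neuronal genes Th, Dbh and Snap25 and the epithelial genes Epcam and Cdh1 were below 1 CPM in every mouse. Other markers of these lists were detected. The 5 neutrophil markers summed to 0.177 to 14.1 CPM per mouse. The sums were 4.68 to 14.9 CPM for the 6 markers of neurons and glia and 7.52 to 26.5 CPM for the 5 epithelial markers. The low genes alone do not show that these cells were absent.

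None of the 9 genes passed the threshold in any of 7 comparisons made with edgeR's quasi-likelihood test, which asked for a false discovery rate (FDR, the adjusted p) under 0.05 and a change over 1.5-fold. DESeq2 also called 0 of the 9 in each comparison. For ischemia against normal conditions over both genotypes, 164 of all genes tested passed (0.927%), for ischemia in WT mice 2 (0.0113%) and for ischemia in KO mice 52 (0.294%). Between KO and WT mice 0 genes passed over both conditions (0%), under normal conditions (0%) and after ischemia (0%), and 0 passed for the interaction, the difference between the ischemia effects of the genotypes (0%). DESeq2 called 88, 41, 18 and 11 genes in these 4 comparisons. Without WT replicate 2 under normal conditions, the library with the highest adipocyte marker sums, edgeR called 102 genes for KO against WT mice over both conditions and 29 under normal conditions, and 0 of the 9 among them. A count of 0 among 9 genes is close to the background in each comparison.

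At an unadjusted p under 0.05, 1 of the 9 genes stood out for ischemia over both genotypes (Sqstm1) and 1 for KO against WT mice after ischemia (Mtor), and 0 in the other 5 comparisons. Among all genes tested the share at this limit was 18.1% for ischemia over both genotypes, 9.57% for ischemia in WT mice, 13.2% for ischemia in KO mice, 7.77% for KO against WT mice over both conditions, 5.25% under normal conditions, 6.48% after ischemia and 4.32% for the interaction. The intervals show how large a change could have gone unseen. For ischemia over both genotypes the 95% interval lay within 1.5-fold in both directions for 8 of the 9 genes, all but Fundc1. For ischemia in one genotype this held for 3 of 9 genes in WT mice and 3 of 9 in KO mice. For KO against WT mice it held for 7 of 9 over both conditions, 5 of 9 under normal conditions and 4 of 9 after ischemia. For the interaction it held for 1 of 9, Becn1, so differences of over 1.5-fold between the ischemia effects of the genotypes could have gone unseen in the other 8 genes.

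**Figure D1:**
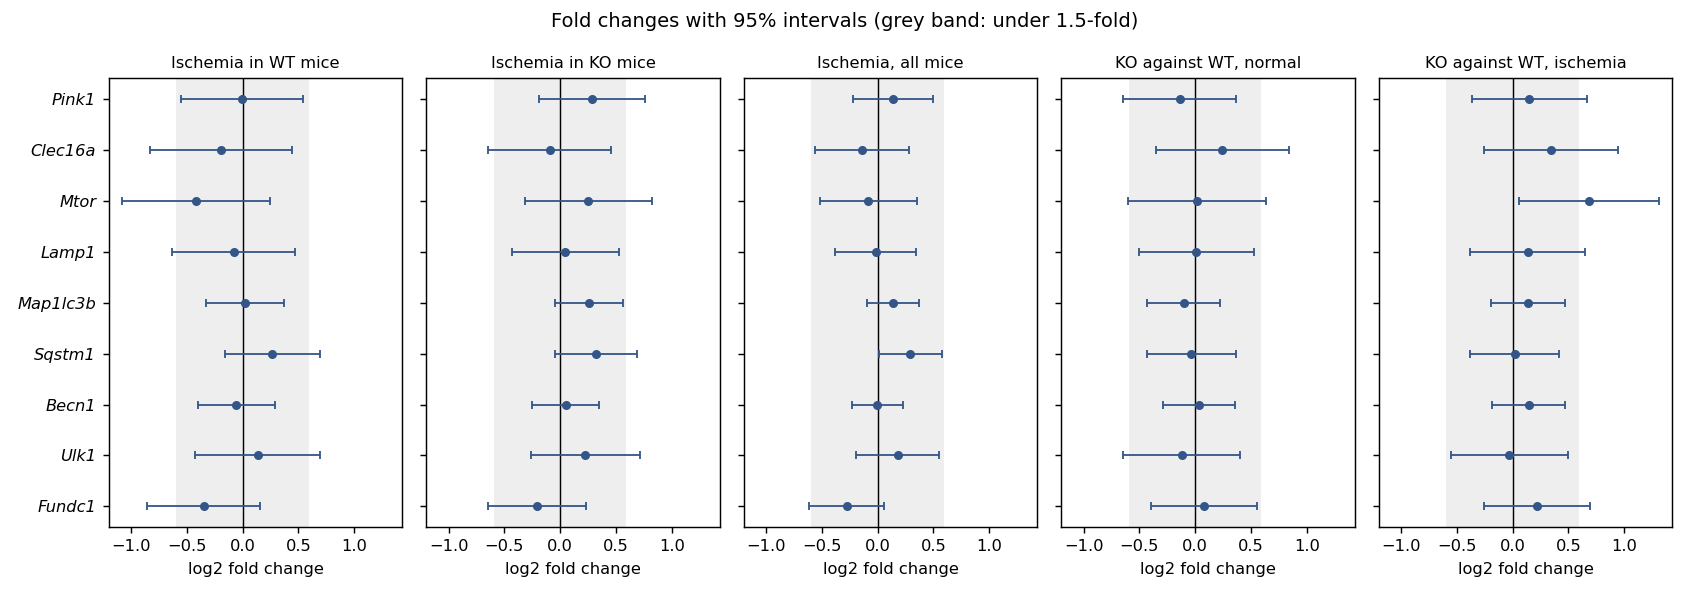
Log2 fold change (x axis) of each of the 9 genes (rows) in 5 comparisons (panels) from edgeR, where points are estimates, bars are 95% intervals and the grey band marks changes under 1.5-fold. The intervals of Sqstm1 for ischemia over all mice and of Mtor for KO against WT mice after ischemia leave out 0, while all others include it.

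Levels of different genes were compared as CPM per kb of exon, averaged over the 14 mice. Lamp1, a main glycoprotein of the lysosomal membrane, had the highest level with 284.9 CPM per kb. Sqstm1, which encodes the cargo receptor p62, followed with 133.9, and Pink1 with 99.0 CPM per kb. Map1lc3b, which encodes the autophagosome protein LC3B, was at 38.6 CPM per kb. The kinase gene Ulk1 (16.6 CPM per kb) and Becn1 (12.6 CPM per kb), which start autophagosome formation, stood in the middle of the order. Fundc1 (6.45 CPM per kb), Clec16a (5.80 CPM per kb) and Mtor (5.50 CPM per kb) lay close together. Fundc1 had the fewest reads, with 262 to 829 per mouse. The spread over the 14 mice was smallest for Becn1 and Map1lc3b, with coefficients of variation of 9.91% and 10.3% of the CPM, and largest for Mtor and Clec16a, with 30.5% and 26.2%.

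**Figure D2:**
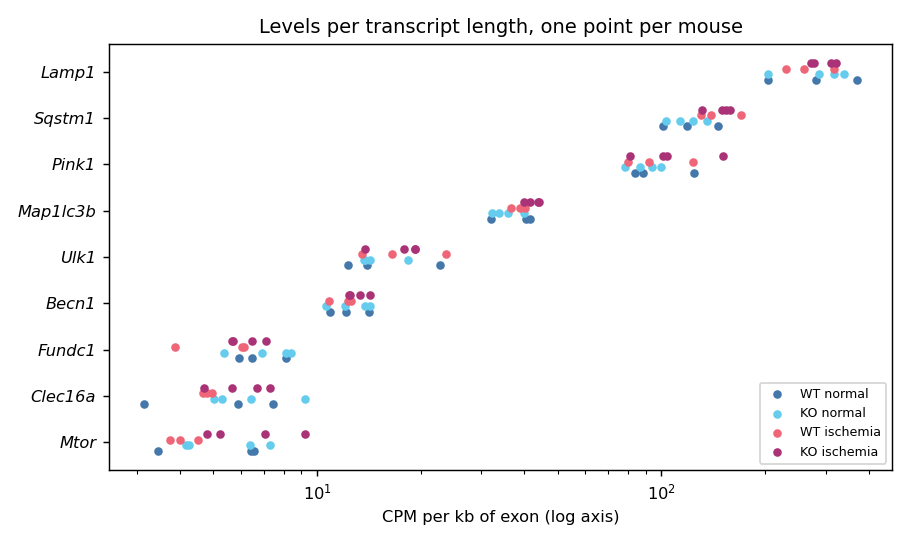
CPM per kb of exon (x axis, log scale) of the 9 genes (rows) with 1 point per mouse, coloured by group. The means range from 5.50 (Mtor) to 284.9 CPM per kb (Lamp1), and the spread between mice within a gene is small beside this range.

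Pink1, the kinase that marks damaged mitochondria, did not pass the test in any comparison. Its level was 225, 331 and 236 CPM in the 3 WT mice and 231, 251, 210 and 267 CPM in the 4 KO mice under normal conditions. The ischemia values were 329, 213 and 246 CPM in WT mice and 216, 278, 269 and 404 CPM in KO mice. The highest value, 404 CPM in 1 KO mouse after ischemia, lay above all others, and the groups overlapped throughout. The log2 fold change for ischemia was 0.14 (SE 0.17) over both genotypes and 0.28 (SE 0.22) in KO mice (edgeR, FDR 0.684 and 0.628).

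Clec16a encodes an endosomal protein that controls the Pink1 route of mitophagy through the ubiquitin ligase Rnf41. The study measured this protein by western blot. It reported a rise after ischemia that was attenuated in KO mice, and it proposed that Drp1 may raise the protein on mitochondria. The values here are of mRNA. The exons of Clec16a are spread over chromosome 16 from 10545339 to 10744878 on the plus strand (GRCm38). In WT mice it was at 24.2, 57.2 and 45.1 CPM under normal conditions and at 38.0, 35.7 and 36.8 CPM after ischemia. The 3 WT mice after ischemia were almost equal (SD 1.14 CPM) and lay inside the range of the WT mice under normal conditions. In KO mice it was at 38.6, 49.4, 40.7 and 70.9 CPM under normal conditions and at 36.1, 51.2, 56.1 and 43.5 CPM after ischemia. Its log2 fold change for ischemia over both genotypes was −0.14 (SE 0.20, FDR 0.723 by edgeR). Between KO and WT mice it was 0.29 (SE 0.20, FDR 0.726) over both conditions and 0.34 (SE 0.28, FDR 0.755) after ischemia. Clec16a mRNA was thus not shown to differ with ischemia or genotype at the spread of these mice, and the protein was not measured here.

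Fundc1 encodes a receptor of the outer mitochondrial membrane that binds LC3 during hypoxia. It was at 13.7, 18.7 and 14.9 CPM in WT mice and at 12.4, 15.9, 18.7 and 19.4 CPM in KO mice under normal conditions. Mice after ischemia had 13.99, 8.91 and 14.2 CPM if WT and 13.1, 14.9, 13.04 and 16.4 CPM if KO. The estimate for ischemia was −0.28 on the log2 scale over both genotypes (SE 0.16, interval −0.62 to 0.06, edgeR FDR 0.359) and −0.35 in WT mice (SE 0.24, FDR 0.593). The lowest mouse, at 8.91 CPM, was a WT mouse after ischemia, and the groups overlapped throughout.

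Bnip3 and Bnip3l, receptors of the same kind that are known targets of the hypoxia factor HIF-1, were set beside these genes. For Bnip3l the log2 fold change for ischemia over both genotypes was −0.35 (SE 0.13, interval −0.64 to −0.07), with an unadjusted p of 0.0184 and an FDR of 0.195 by edgeR. In WT mice alone it was −0.45 (SE 0.20, FDR 0.518), and −0.31 without WT replicate 2 under normal conditions. For Bnip3 the log2 fold change for ischemia over both genotypes was −0.59 (SE 0.36, FDR 0.397), and only −0.075 without WT replicate 2 under normal conditions. Bnip3 was highest in 2 mice under normal conditions, WT replicate 2 (331.6 CPM) and KO replicate 4 (309 CPM), against 66.7 to 164.6 CPM in the other 12. These 2 mice also had the highest white adipocyte marker scores of the 14 (9.30 and 8.53 as mean log2 CPM), and the part of these cells in the values was not tested. In bulk tissue, fewer cells of a type and less RNA per cell cannot be told apart.

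**Figure D3:**
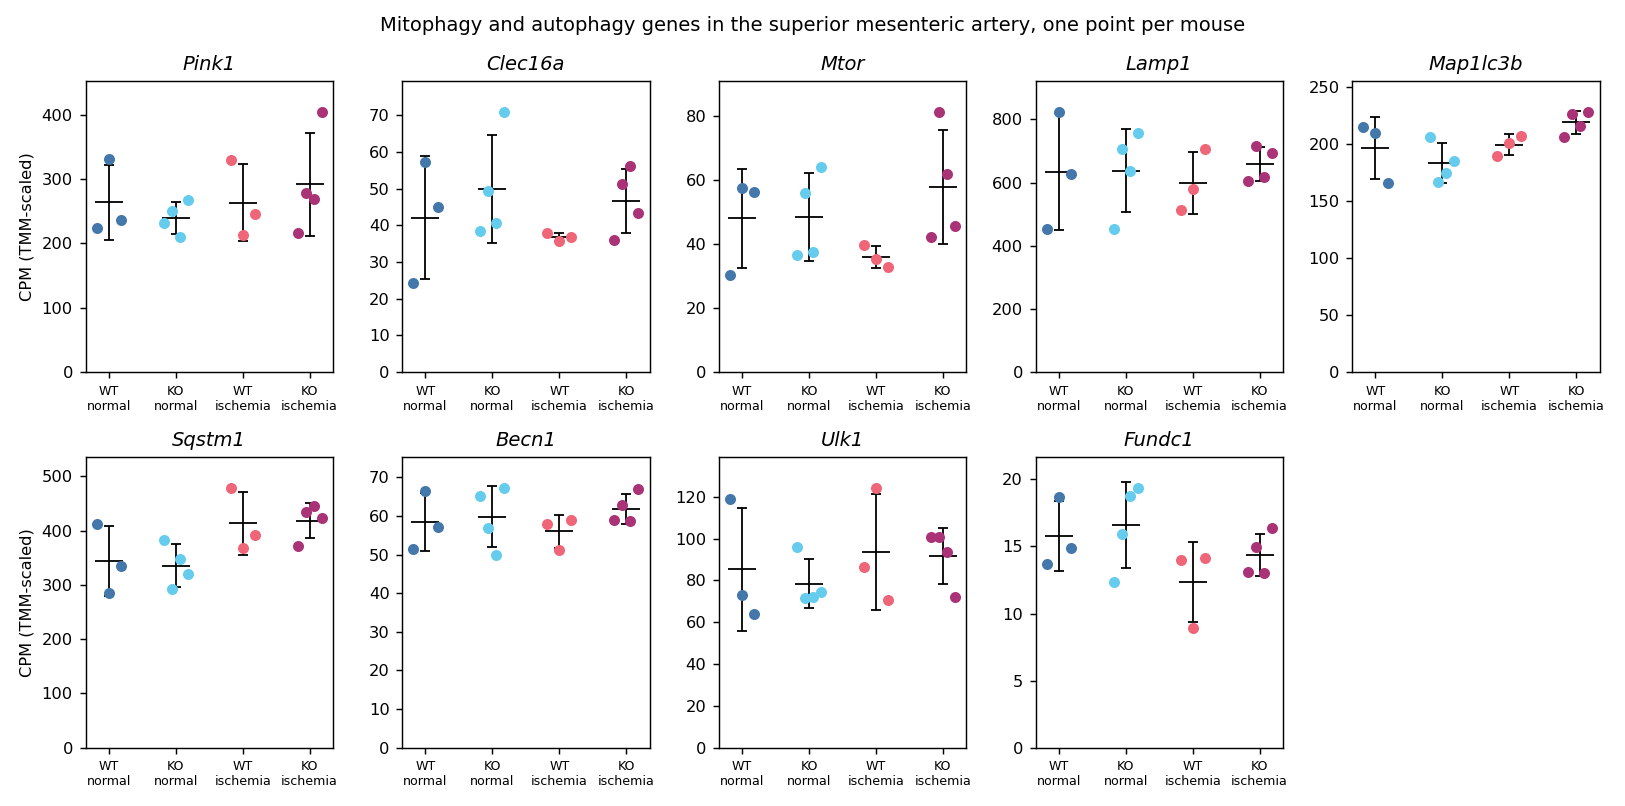
CPM after TMM scaling (y axis, from 0) of the 9 genes (panels) in WT and KO mice under normal conditions and after ischemia, with 1 point per mouse and the mean ± SD of each group (n = 3 or 4). Mtor separates KO from WT mice after ischemia, at 42.2 to 81.2 against 32.8 to 39.7 CPM, and the ischemia groups of Sqstm1 sit above the normal groups on average.

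Mtor encodes the kinase of mTORC1, which holds autophagy back when nutrients are present. It was the gene with the largest estimated difference between KO and WT mice among the 9. After ischemia it was at 39.7, 35.2 and 32.8 CPM in WT mice and at 42.2, 81.2, 61.9 and 45.8 CPM in KO mice, so every KO mouse lay above every WT mouse. Such a separation in the higher direction was seen in 4.74% of all genes tested. The log2 fold change was 0.69 (SE 0.29, interval 0.06 to 1.31, unadjusted p 0.0341) and the FDR by edgeR was 0.715. Under normal conditions the values were 30.3, 57.5 and 56.3 CPM in WT mice and 36.6, 56.0, 37.4 and 64.1 CPM in KO mice, and the group means of 48.0 and 48.5 CPM were nearly equal. The ischemia estimate was −0.42 (SE 0.31) in WT mice and 0.25 (SE 0.27) in KO mice (edgeR FDR 0.62 and 0.753). The difference between them, tested as the interaction, was 0.67 (SE 0.41, interval −0.20 to 1.55, edgeR FDR 0.946). After ischemia the 6 brown adipocyte markers summed to 1050 to 4931 CPM in KO mice and 277.5 to 1536 CPM in WT mice, and their part in the Mtor difference was not tested.

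Ulk1 encodes the kinase that starts autophagosome formation and is inhibited by mTORC1. It was at 119, 73.1 and 64.1 CPM in WT mice and at 95.9, 71.4, 71.9 and 74.6 CPM in KO mice under normal conditions. Ischemic WT mice had 86.4, 124 and 70.4 CPM and ischemic KO mice 101, 101, 93.7 and 72.1 CPM. Each group of WT mice had 1 mouse far above the other 2, and the log2 fold change for ischemia over both genotypes was 0.18 (SE 0.17, edgeR FDR 0.601). Pik3ca, the catalytic subunit of the kinase upstream of mTORC1, had a log2 fold change for ischemia over both genotypes of 0.19 (SE 0.17, edgeR FDR 0.561).

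Becn1 encodes Beclin 1, the scaffold of the lipid kinase complex that nucleates the autophagosome membrane. It was the least variable of the 9 genes. Its level was 51.6, 66.5 and 57.1 CPM in WT mice and 65.1, 56.9, 49.99 and 67.3 CPM in KO mice under normal conditions, and 58.0, 51.2 and 59.0 CPM in WT mice and 59.0, 62.8, 58.6 and 67.0 CPM in KO mice after ischemia. For ischemia over both genotypes it had a log2 fold change of −0.01 with an interval of −0.23 to 0.22, which lies within 1.5-fold in both directions. Exons of Becn1 overlap those of Cntd1 on the opposite strand over 3104 bases, and whether the counting used strand is not given in the sources used here.

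Map1lc3b, whose product LC3B is attached to the autophagosome membrane, is measured here as mRNA, which does not show the lipid-bound form of the protein. In KO mice it was at 206.6, 166.5, 174.3 and 185.3 CPM under normal conditions and at 206.4, 226.5, 215.6 and 228.0 CPM after ischemia. The 2 groups touched at a single pair of mice. In WT mice it was at 214.8, 209.6 and 165.7 CPM under normal conditions and at 189.5, 201.0 and 207.5 CPM after ischemia. The log2 fold change for ischemia in KO mice was 0.26 (SE 0.14, interval −0.05 to 0.56, unadjusted p 0.0894, edgeR FDR 0.465), and over both genotypes it was 0.14 (SE 0.11, FDR 0.507). The interaction estimate was 0.24 (SE 0.22, edgeR FDR 0.946), so WT and KO mice were not shown to differ in this response.

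Sqstm1 encodes p62, which links ubiquitin-tagged cargo to LC3. For ischemia over both genotypes no other of the 9 genes had a smaller FDR. In WT mice it was at 412, 285 and 335 CPM under normal conditions and at 479, 369 and 393 CPM after ischemia. In KO mice it was at 383, 292, 348.5 and 320.0 CPM under normal conditions and at 371, 435, 445 and 424 CPM after ischemia. The means were higher after ischemia in both genotypes, at 413.5 against 344 CPM in WT and 418.8 against 335.9 CPM in KO mice, and in each genotype the ranges overlapped by the highest mouse under normal conditions. Over both genotypes the log2 fold change was 0.29 (SE 0.13, interval 0.01 to 0.57, fold 1.22), with an unadjusted p of 0.043 and an FDR of 0.263 by edgeR. It was 0.27 (SE 0.20) in WT mice and 0.32 (SE 0.17) in KO mice (edgeR FDR 0.625 and 0.456). The 6 smooth muscle markers summed to 19100 to 37360 CPM after ischemia and 7316 to 25510 CPM under normal conditions, and the relation of Sqstm1 to these markers within groups is given with the marker scores. Exons of Sqstm1 overlap those of Mrnip on the opposite strand over 580 bases.

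Lamp1, the marker by which lysosomes are commonly traced, was at 453, 823 and 626 CPM in WT mice and at 453, 706, 637 and 757 CPM in KO mice under normal conditions. After ischemia it was at 513, 580.0 and 706.5 CPM in WT mice and at 606, 717, 619 and 694 CPM in KO mice. The KO mice after ischemia were the most alike (659 ± 54.7 CPM, SD, n = 4), and their range lay inside that of each group under normal conditions. The log2 fold change for ischemia over both genotypes was −0.02 (interval −0.38 to 0.35, edgeR FDR 0.971).

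Many lysosomal genes are driven by TFEB and related factors, which bind E-boxes with the core CACGTG near the start of the gene. The letters CACGTG, which read the same on both strands, were searched in the RefSeq promoters of GRCm38.p6 (250 bases before to 50 after each start), which were found for 8 of the 9 genes. Becn1 was not found in that table. Among these 8, only the window of Lamp1 held the motif, and it held it 4 times, at 61, 45, 28 and 15 bases before the start. The motif occurs at least once in 7.15% of the 32851 promoters of the table and at least 4 times in 0.0244% (8 promoters). The 4 occurrences are shown with the motif in capitals because they set Lamp1 apart in sequence from the other 7 windows, and they overlap each other at their ends.
chr8:13159089-13159116, plus strand: gggcaagatatCACGTGgtccagcgccc
chr8:13159105-13159132, plus strand: ggtccagcgccCACGTGatgccgactgg
chr8:13159122-13159149, plus strand: atgccgactggCACGTGaccacatcacg
chr8:13159135-13159162, plus strand: cgtgaccacatCACGTGcggaacggagc
These matches describe the sequence. Binding was not measured, and Lamp1 itself was not shown to change. Tfeb, the gene of the factor, had a log2 fold change of 0.43 (SE 0.18) for KO against WT mice under normal conditions, with an unadjusted p of 0.0298 and an FDR of 0.929 by edgeR.

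The rest of the pathway was read from 6 lists by step: mitophagy receptors and regulators, cargo receptors, initiation (ULK1 complex, mTORC1 and AMPK), nucleation (Beclin 1 and VPS34 complexes), conjugation (LC3 and GABARAP proteins and ATG enzymes), and fusion and lysosome. They name 128 symbols, of which 124 were tested, 115 of them outside the 9 genes. For ischemia over both genotypes 1 of these 115 rose and 0 fell, and the same was found for ischemia in KO mice. In the other 5 comparisons 0 rose and 0 fell. For ischemia over both genotypes the median log2 fold change of the 115 was −0.06, beside −0.05 over all genes tested, and 14 of them (12.2%) had an unadjusted p under 0.05, which is below the share over all genes.

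The gene that rose was Ddit4, which encodes REDD1, an inhibitor of mTORC1 that is induced by hypoxia and stress. Under normal conditions it was at 142, 106 and 57.9 CPM in WT mice and at 80.8, 41.2, 72.9 and 42.1 CPM in KO mice. After ischemia it was at 128, 360 and 480 CPM in WT mice and at 239, 335, 222 and 270 CPM in KO mice. All 4 KO mice after ischemia lay above all 4 under normal conditions, as was the case for 5.49% of genes, and in WT mice 1 of 3 mice after ischemia stayed within the normal range. The fold change was 3.77 over both genotypes (log2 1.92, SE 0.30, edgeR FDR 0.0124) and 4.50 in KO mice (log2 2.17, SE 0.40, FDR 0.0414). In WT mice it was 3.17 (log2 1.66, SE 0.45, unadjusted p 0.00251, edgeR FDR 0.512), and the interaction of 0.51 (SE 0.58, FDR 0.953) did not show a difference between the genotypes. The call in KO mice was lost when any one of the 8 KO mice was left out (FDR 0.0734 to 0.187), with the replicate number as a block (FDR 0.0648) and with upper quartile scaling (FDR 0.054). The call over both genotypes held in each of these cases.

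**Figure D4:**
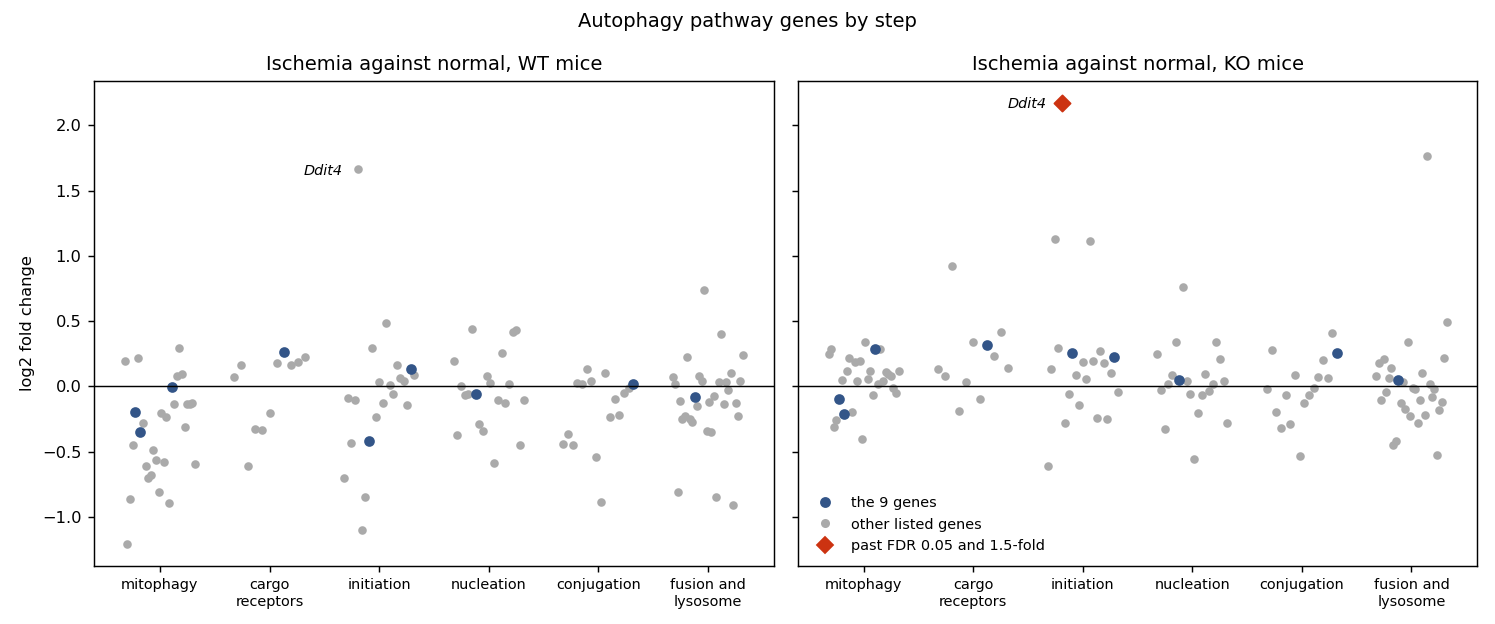
Log2 fold change for ischemia against normal conditions (y axis) of the listed genes by step of the pathway (x axis), in WT mice (left) and KO mice (right). Blue points are the 9 genes, grey points the other listed genes and the red diamond marks Ddit4, the one gene past the threshold, at 2.17 in KO mice.

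Mtor and Ddit4 thus gave different values for ischemia over both genotypes, −0.08 (SE 0.20) for the kinase and 1.92 (SE 0.30) for its inhibitor on the log2 scale. By step, the median log2 fold change for ischemia over both genotypes was −0.13 for the 28 mitophagy genes tested, 0.12 for the 11 cargo receptors, 0.02 for the 21 initiation genes, −0.02 for the 20 nucleation genes, −0.03 for the 16 conjugation genes and −0.06 for the 30 fusion and lysosome genes. In WT mice the median of the mitophagy genes was −0.30, and in KO mice it was 0.07, beside −0.01 and −0.05 over all genes tested in these comparisons. In WT mice the brown adipocyte markers summed to 178 to 6506 CPM (median 1610) under normal conditions and to 277.5 to 1536 CPM (median 705) after ischemia. The white adipocyte markers summed to 1152 to 18300 CPM (median 4233) and 1763 to 3948 CPM (median 2114) in the same mice, with both highest sums in WT replicate 2 under normal conditions. The part of fat cells in the median of the mitophagy genes was not tested. These groups share members with the 9 genes, and the medians are descriptions without a test.

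The other listed genes that the naming rule picked out did not pass the test and are given as values. For KO against WT mice after ischemia, Rubcn, which encodes the inhibitor Rubicon of autophagosome maturation, was at 35.0, 25.3, 30.8 and 31.5 CPM in KO mice and at 63.0, 43.4 and 46.0 CPM in WT mice. All KO mice were below all WT mice, as was the case for 5.97% of all genes tested, with a log2 fold change of −0.73 (SE 0.19, unadjusted p 0.00164, edgeR FDR 0.715). Over both conditions the value of Rubcn was −0.44 (SE 0.13, FDR 0.549). Nrbf2, a subunit of the VPS34 lipid kinase complex, was at 13.5, 29.5, 25.8 and 23.7 CPM in KO mice and at 11.4, 15.9 and 9.53 CPM in WT mice after ischemia. Its log2 fold change was 0.91 (SE 0.26, edgeR FDR 0.715), and its interaction 1.05 (SE 0.36, FDR 0.946). Under normal conditions Nrbf2 was at 11.8 to 14.4 CPM in KO mice and 12.4 to 16.4 CPM in WT mice. Atg101, a subunit of the ULK1 complex, had an interaction of 1.56 (SE 0.51, edgeR FDR 0.946), with 19.9, 47.5, 40.6 and 42.5 CPM in KO mice after ischemia against 14.4 to 22.8 CPM in KO mice under normal conditions. Nipsnap1, a mitochondrial protein that can display damage signals for autophagy receptors, had 0.71 (SE 0.22, edgeR FDR 0.56) for KO against WT mice over both conditions. Atg2a, a lipid transfer protein, had 1.09 (SE 0.42, FDR 0.91) under normal conditions from a level of only 0.944 to 2.88 CPM. Vps33a, a fusion factor of the lysosome, had −0.91 (SE 0.27, edgeR FDR 0.513) for ischemia in WT mice, and −0.44 without WT replicate 2 under normal conditions, the highest of the WT mice at 85.8 CPM.

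The levels of the genes were compared in more detail with markers of brown adipocytes, within each group of mice. The brown adipocyte score, the mean log2 CPM of Ucp1, Cidea, Dio2, Cpt1b, Cox7a1 and Ppargc1a, ranged from 3.24 to 7.49. In this score Cpt1b, and in the smooth muscle score Tagln, counted as much as the other genes in spite of their low levels. After group means were removed, Clec16a had a Pearson r of 0.834 with this score in all 14 libraries (two-sided exact permutation p = 0.00227, adjusted 0.0409 over 18 relations) and a Spearman rho, from ranks within groups, of 0.714 (two-sided exact permutation p = 0.0288, adjusted 0.173). It was 0.835 without the 2 mice farthest from the median score and 0.84 among the 13 mice of 1 lane. For Mtor, r was 0.726 (two-sided exact permutation p = 0.0186, adjusted 0.116) and rho 0.714 (exact permutation p = 0.0288, adjusted 0.173), with an r of 0.739 without the 2 farthest mice. For Lamp1, r was 0.759 (two-sided exact permutation p = 0.0193, adjusted 0.116) and rho 0.714 (exact permutation p = 0.0288, adjusted 0.173), while r fell to 0.562 without the 2 farthest mice. Only the r of Clec16a passed the adjustment, and its rho did not. For Sqstm1, r was −0.66 (two-sided exact permutation p = 0.0583, adjusted 0.15) and rho −0.214 (exact permutation p = 0.6, adjusted 0.831), with an r of −0.312 without the 2 farthest mice. The other 9 of the 18 relations were with the smooth muscle score, and none passed the adjustment. With that score Lamp1 had an r of −0.762 (two-sided exact permutation p = 0.0267, adjusted 0.12), Clec16a −0.758 (exact permutation p = 0.05, adjusted 0.15), Mtor −0.546 (exact permutation p = 0.137, adjusted 0.308) and Sqstm1 0.684 (exact permutation p = 0.058, adjusted 0.15). The rho values were −0.643 for Lamp1 and for Clec16a (exact permutation p = 0.0582, adjusted 0.21), −0.571 for Mtor (exact permutation p = 0.101, adjusted 0.303) and 0.286 for Sqstm1 (exact permutation p = 0.46, adjusted 0.753). Without the 2 mice farthest from the median of the smooth muscle score, r was −0.535 for Lamp1, −0.49 for Clec16a, −0.394 for Mtor and 0.526 for Sqstm1. Among the 13 mice of 1 lane, r with the brown adipocyte score was 0.742 for Mtor, 0.758 for Lamp1 and −0.659 for Sqstm1, and r with the smooth muscle score was −0.895 for Clec16a, −0.827 for Lamp1, −0.716 for Mtor and 0.75 for Sqstm1. The scores were compared after their values had been seen, and their part in the comparisons between groups was not tested. Scores of other cell types, among them white adipocytes and endothelium, were formed but were not related to the 9 genes. The adjustment covers only the 18 relations, so a relation particular to brown adipocytes was not shown.

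**Figure D5:**
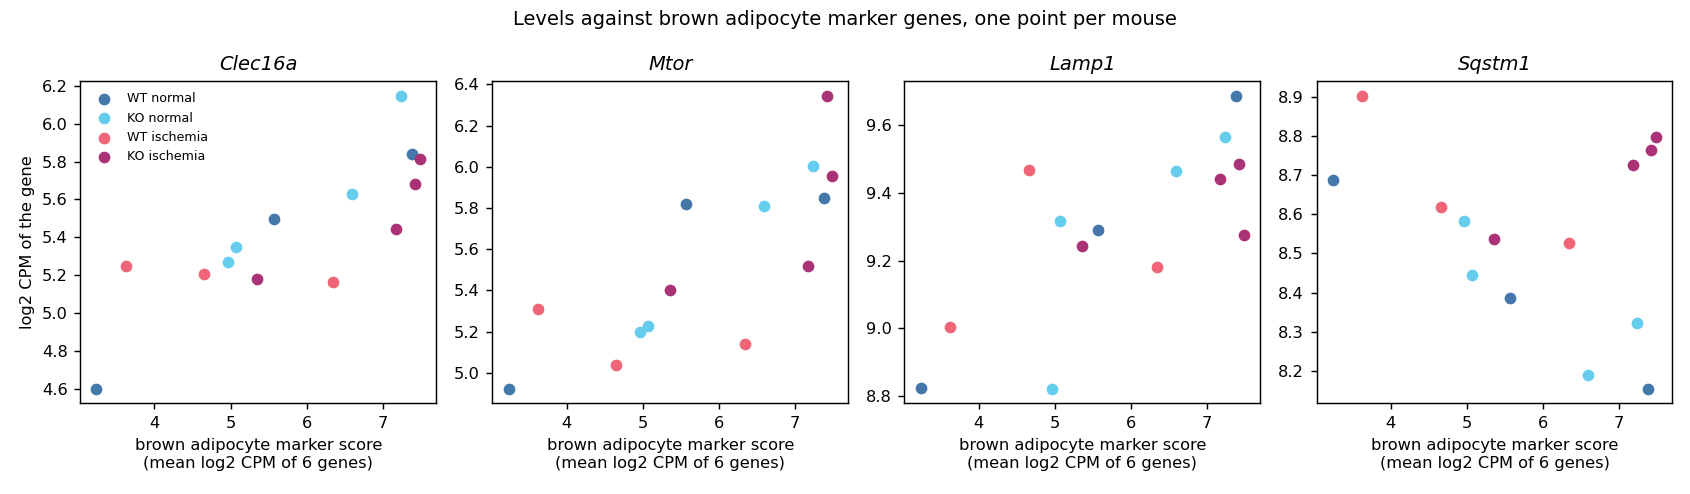
Log2 CPM of Clec16a, Mtor, Lamp1 and Sqstm1 (y axes) against the brown adipocyte marker score (x axis, mean log2 CPM of 6 genes), with 1 point per mouse coloured by group. Clec16a is lowest in the mouse with the lowest score of 3.24 and highest in KO replicate 4 under normal conditions, which has a score of 7.23, with a within-group r of 0.834.

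For each gene, the 3 genes with the most similar log2 CPM over the 14 mice were sought among about 9530 genes of a mean log2 CPM over 3, as a description without a test. Clec16a was most like Nudt12 (r = 0.964), Gpam (0.952) and Hspd1 (0.951). Mtor was most like Fam210a (0.91), Slc25a44 (0.909) and Rtfdc1 (0.906). Lamp1 was most like 2210016F16Rik (0.976), Glod4 (0.936) and Mrps25 (0.932). Gpam encodes a mitochondrial enzyme of triglyceride synthesis and Hspd1 the mitochondrial chaperone Hsp60. Map1lc3b was most like the ubiquitin gene Ubb (0.895), followed by Pak1ip1 (0.867) and Ubald1 (0.864). Sqstm1 was most like Rasl10b (0.904), Ptp4a3 (0.884) and Socs7 (0.882). Pink1 was most like Fem1a (0.861), Tmem201 (0.849) and Spr (0.817). Becn1 was most like Ssu72 (0.929), Faf1 (0.926) and 9430016H08Rik (0.919). Ulk1 was most like Sorbs3 (0.933), Wasf2 (0.932) and Mapk1ip1 (0.929), and Fundc1 like Gpatch4 (0.907), Yipf1 (0.885) and Ppp1r8 (0.882). No gene of the 9 appeared among the 3 nearest of another.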

How the data were processed

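The SMA of 14 mice in 4 groups was profiled by RNA-seq. The authors deposited raw read counts, 1 whole number per gene symbol and mouse, without normalization or pooling. HISAT2 2.0.4 and the build mm10 are named in the submitters' processing notes, while the counter, annotation and use of strand are not given in the sources used here. No column of single samples was left unused.

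The tests ran in R 4.3.3 using edgeR 4.0.16 (filterByExpr, TMM, quasi-likelihood test, 1 fit of 4 groups) and Benjamini-Hochberg adjustment over all 17693 genes tested. A gene was called at an FDR under 0.05 and a change over 1.5-fold. Intervals are at 95%. Each SE from edgeR was worked back from the test, as the absolute log2 fold change divided by the square root of its F statistic. The intervals were formed from that SE. The common biological coefficient of variation was 0.522. Log2 CPM used a prior count of 2. The RVM F-test of the study's methods was not repeated. The Dnm1l check and the relations to marker scores used exact permutation tests. The smallest chi-square per degree of freedom among 18 pairs of replicates was 64.5, so no pair of replicates agreed within sampling noise. Exon lengths and positions came from GENCODE M21 on GRCm38 (protein-coding basic transcripts). Promoters came from RefSeq.

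The genes and lists were chosen with earlier results of these data known. 1 further gene of the set is not reported here. Named were the 9 genes, Dnm1l, Bnip3, Bnip3l, Pik3ca, list genes called in a comparison (at most 6 by p, or the 2 with the smallest p where none was called), and for each of the 9 the 3 most similar genes. Of the cell type markers only sums, scores, some genes below 1 CPM in every mouse and the low levels of Tagln and Cpt1b are given. The steps were run on simulated counts. The ischemia changes planted there were larger than those estimated for the 9 genes. Recovery of changes as small as these was not tested. The alternatives were DESeq2 1.42.0, other scalings, other filters, no fold limit, the replicate number as a block, fits of only the 2 groups compared and each mouse left out. 95% intervals from the fit cover the spread between mice, and a floor of 3 counts covers counting error only.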

Additional observations from a re-analysis of the deposited data

Results flagged for a closer look

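In groups of 4 mice, a mouse was flagged when its gap to the nearest other, divided by the range of the group, was above Dixon's 95% critical value. The 28 groups tested (14 named genes in 2 groups of KO mice) gave 2 flags, and chance alone gives about 1 in 20. Ulk1 was at 95.9 CPM in KO replicate 1 under normal conditions against 71.4 to 74.6 CPM in the other 3 mice (gap over range 0.871). Bnip3 was at 309 CPM in KO replicate 4 under normal conditions against 103.5 to 130.3 CPM in the other 3 (gap over range 0.87).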

How the results depend on the processing

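None of the 9 genes was called in any of 1296 values (9 genes, 7 comparisons, the alternatives that could be fitted), and the smallest adjusted p among them was 0.123, for Sqstm1 under ischemia over both genotypes without WT replicate 1 under normal conditions. The sign of the fold change turned in 93 of these values. Counts over all genes moved more. DESeq2 called 870 genes for ischemia over both genotypes against 164 by edgeR, 108 against 2 in WT mice, 606 against 52 in KO mice, and for KO against WT mice 88 over both conditions, 41 under normal conditions, 18 after ischemia and 11 for the interaction, against 0 each. Fits of only the 2 groups compared gave 0 calls for ischemia in WT mice and 267 in KO mice. With the replicate block there were 0 calls for ischemia in WT mice and 1 for KO against WT mice over both conditions, and the log2 fold change of Lamp1 for ischemia over both genotypes turned to 0.0117. Whether mice of the same replicate number share a common factor was not settled. Deviations from group means of 19 same-numbered pairs correlated at −0.146 to 0.316 (median 0.12), over 0.1 in 11. Among the samples, 8 of 14 correlated best with their own number, and the source of this was not tested. The replicate block changed no call of the 9 genes.

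Leaving out 1 mouse gave 60 to 361 calls for ischemia over both genotypes, 0 to 3 in WT mice, 5 to 174 in KO mice, and 0 to 102 and 0 to 29 for KO against WT mice over both conditions and under normal conditions, where only the fit without WT replicate 2 under normal conditions made calls. The count of 361 came without WT replicate 1 under normal conditions, 60 without KO replicate 2 under either condition, 5 without KO replicate 3 under normal conditions, and 174 without WT replicate 2 under normal conditions. In 3 of 14 fits the count over both genotypes moved by under 1.5 times. Log2 fold changes for ischemia over both genotypes ranged from −0.27 to 0.0027 for Clec16a, −0.11 to 0.10 for Lamp1 and −0.0437 to 0.0504 for Becn1, so these have no settled direction. Dnm1l in KO against WT mice under normal conditions ranged from −24.7% to −8.99%, and exact tests with 1 mouse fewer cannot reach the threshold. Each of the 9 genes had at least 262 reads in every mouse. The part of depth, group size and spread between mice in these results was not tested, nor were the causes of the shifts.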
